A study of Homo sapiens with 12 samples.

Results

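The genes described here are the pair that forms the selenoprotein P locus, SELENOP and CCDC152, and 8 further genes of selenoproteins: GPX1, GPX4, SELENOH, SELENOK, SELENOM, SELENOS, SELENOT and SELENOW. They are 10 of the 63241 genes in the deposited count table. CCDC152 makes no selenoprotein. It was chosen by its measured counts, which moved far and in opposite directions in the cell lines studied, and because it lies opposite SELENOP, so its values are a description and carry no test. The other 9 were taken in for what they encode, although earlier results of these data were known by then. RNA sequencing of polyadenylated transcripts compared PEPD-OE cells with NC cells in T98G and in U251, both established human glioblastoma lines, with 3 libraries for each line and label. PEPD-OE stands for over-expression of PEPD, the gene of peptidase D, which releases proline from dipeptides. The labels do not spell out NC, and neither the vector nor the number of clones is given in the sources used here. Nor do they say whether replicates came from separate cultures, so a p-value here may measure technical spread alone.

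Selenoproteins contain selenocysteine, an amino acid placed at UGA, a codon that otherwise ends translation. Reading it needs a stem-loop in the mRNA, the binding protein SECISBP2, the elongation factor EEFSEC and a dedicated tRNA, and so depends on selenium. Selenoprotein P, made chiefly by the liver, is the exception among the family in holding many selenocysteines. It carries selenium in blood to the brain and testis, where the receptor LRP8 takes it up, and astrocytes also make it. The glutathione peroxidases reduce hydrogen peroxide and lipid peroxides, and GPX4 is the enzyme that holds back ferroptosis. Several of the small members sit in the endoplasmic reticulum (ER). In human hepatoma cells an RNA of the CCDC152 gene was described to hold back translation of the SELENOP mRNA.

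The codons that define the family are shown first, because most of those of SELENOP lie in the bases that it shares with CCDC152. Each line gives the coding strand, 5′ to 3′, around a selenocysteine codon annotated in GENCODE 29 (GRCh38), with up to 12 coding bases on either side. Capitals mark the TGA and, where there is one, a cysteine codon exactly 3 codons away.
SELENOP codon 1 of 10: cttcaagccagcTGAtacctgTGCata
SELENOP codon 2 of 10: gctcctaggagcTGAtgctgccattgt
SELENOP codon 10 of 10: aaaaagtgagaaTGAccttcaaac
SELENOW: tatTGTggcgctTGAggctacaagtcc
SELENOT: attTGTgtttccTGAggttataggcgg
SELENOH: catTGCactagcTGAcgcgtctatggg
SELENOM: accTGCgggggaTGAcagctgaaccgc
GPX1: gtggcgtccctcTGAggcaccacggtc
GPX4: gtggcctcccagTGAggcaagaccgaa
SELENOK: atggctggtggaTGAggaagg
SELENOS: tcatctggcggaTGAggc
In SELENOW, SELENOT, SELENOH and SELENOM the cysteine codon came before the TGA, as in the redox motif of thioredoxin-like proteins, and in SELENOP it came after the first TGA. The windows of GPX1 and GPX4 were identical at 19 of 27 bases. In SELENOK and SELENOS the selenocysteine codon was nearly the last, with 2 and 1 coding codons after it.

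SELENOP (ENSG00000250722, minus strand) is annotated at chr5:42799880-42887392 and CCDC152 (ENSG00000198865, plus strand) at chr5:42756801-42802360. The genes run towards each other, and the last exon of each lies across the last exon of the other. The shared stretch is 1 block of 1452 bases at chr5:42799880-42801331, which is 25.5% of the exon bases of SELENOP and 42.3% of those of CCDC152. In SELENOP 609 of these bases code for protein, and in CCDC152 none does. Codon 1 of SELENOP (chr5:42808177-42808179) lies outside the block. The other 9 selenocysteine codons lie inside it, opposite the noncoding end of the CCDC152 transcript.

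**Figure D1:**
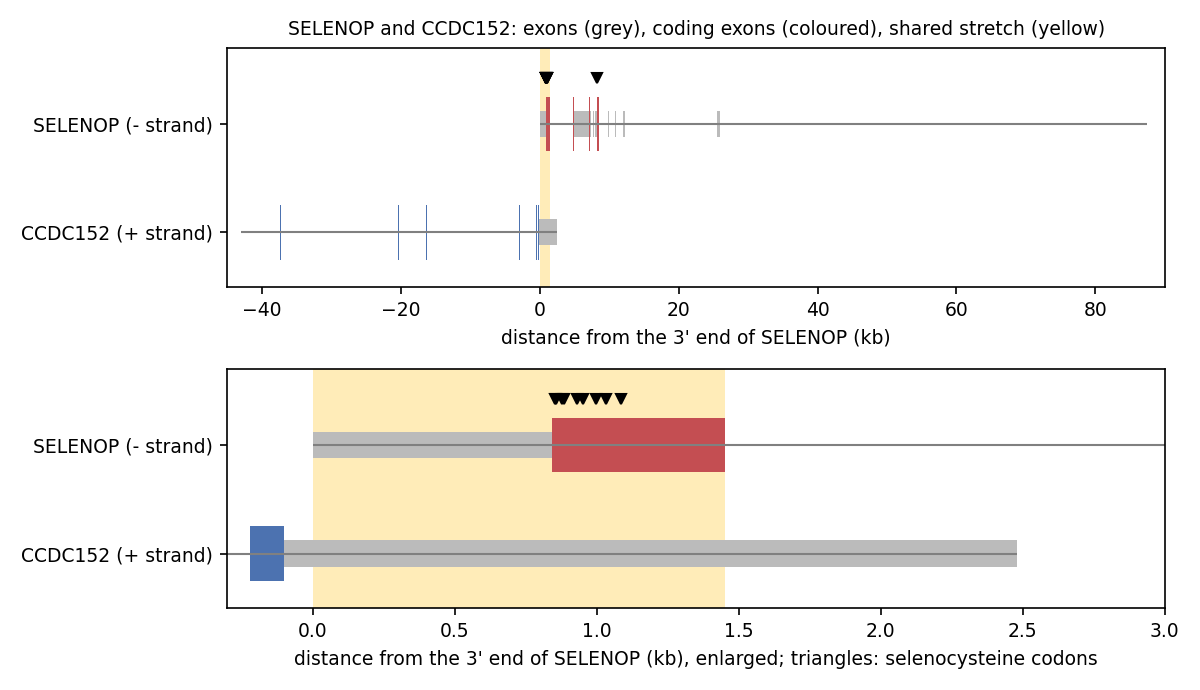
Map of the SELENOP and CCDC152 exons in GENCODE 29, with the distance from the 3′ end of SELENOP in kb on the x axis, the whole locus above and the shared stretch enlarged below. Grey boxes are exons, coloured boxes are coding exons, the yellow band is the shared block of 1452 bases, and triangles are the 10 selenocysteine codons, of which 9 lie in the band.

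The starts of both genes lie outside the shared block, and their promoter windows are shown because these genes make up the locus. The windows (RefSeq, GRCh38.p14), each across a start taken from RefSeq, are chr5:42811843-42812142 for SELENOP and chr5:42756568-42756867 for CCDC152. The SELENOP window lies inside the GENCODE span of the gene given above, away from the outermost start at 42887392. Capitals mark matches, on either strand, to the antioxidant response element core TGACNNNGC and to the FOXO motif GTAAACA, which did not overlap each other.
SELENOP: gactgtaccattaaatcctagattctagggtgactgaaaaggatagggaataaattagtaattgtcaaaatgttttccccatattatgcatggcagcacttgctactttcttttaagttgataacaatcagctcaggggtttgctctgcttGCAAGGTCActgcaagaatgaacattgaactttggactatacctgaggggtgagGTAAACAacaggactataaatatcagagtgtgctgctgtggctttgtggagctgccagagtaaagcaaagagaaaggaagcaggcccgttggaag
CCDC152: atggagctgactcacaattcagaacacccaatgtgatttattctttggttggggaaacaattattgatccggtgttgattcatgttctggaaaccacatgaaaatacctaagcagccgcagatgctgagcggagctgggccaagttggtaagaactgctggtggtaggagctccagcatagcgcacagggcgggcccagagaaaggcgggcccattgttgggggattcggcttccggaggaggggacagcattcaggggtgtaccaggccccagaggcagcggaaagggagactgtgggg
The SELENOP window held 1 match to each motif and the CCDC152 window held none. Over all 35116 promoter windows, 13.35% held the first motif and 3.42% the second. Of 23 selenoprotein genes with a window, 5 held the first motif, namely GPX2, SELENOK, SELENON, SELENOP and TXNRD1. A match is a run of letters and no evidence of binding.

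Library totals ran from 464056 to 924204 counts. Levels are counts per 1e6 (CPM) on library sizes scaled by edgeR's TMM factors. Calls were made by edgeR's quasi-likelihood test over the 8773 genes that passed a filter on low counts, where the p-value adjusted over all of them lay under 0.05. PEPD stood at 156 to 174.5 CPM in T98G PEPD-OE against 2.60 to 19.0 CPM in T98G NC, and at 167 to 187 CPM in U251 PEPD-OE against 6.44 to 13.2 CPM in U251 NC.

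Of 7 glial or astrocyte markers, 5 had a count in T98G and 6 in U251, with OLIG2 at 0 throughout. Between the NC groups CD44 was called higher in T98G, and GFAP, NES, SOX2 and VIM lower, with SOX2 at 0 to 1 counts in the T98G libraries against 181 to 354 in the U251 libraries. The leukocyte gene PTPRC had 25 counts in T98G PEPD-OE replicate 2 and 35 in T98G NC replicate 2, against at most 5 in each of the other 10 libraries. Of the other macrophage or microglia markers, AIF1 had 3 and 4 counts in these libraries and none elsewhere. CD68 (1 and 1) and CSF1R (2 and 2) did not stand out there. Of the endothelial markers, PECAM1 had 10 and 8 counts there and at most 3 in any other library, while VWF and CDH5 had none there. These 2 libraries stand apart in PTPRC, AIF1 and PECAM1, and the results below are also given without them where that alters a call or a direction. The hepatocyte markers ALB, APOA1 and TTR together reached 1.29 CPM at most. Several markers changed with PEPD-OE. VIM fell in both lines (log2 fold changes -0.61 in T98G and -0.41 in U251), GFAP and SOX2 fell in U251 (-0.62 and -0.47), and of the epithelial markers KRT8 fell in T98G (-0.80). GFAP, VIM and KRT8 share 2230, 1260 and 525 exon bases with genes on the other strand. Of 4 fibroblast markers, 2 were tested. COL1A2 rose in T98G (1.25, edgeR adjusted p = 1.76e-18) and fell in U251 (-0.55, adjusted p = 0.00011), and PDGFRB was called higher in T98G (0.59, adjusted p = 0.0278). The PDGFRB call was lost without T98G NC replicate 2 or 3 (adjusted p = 0.0981 and 0.132), T98G PEPD-OE replicate 2 or 3 (adjusted p = 0.0689 and 0.119) or both T98G libraries numbered 2 (adjusted p = 0.161). The PDGFRB call was also lost with DESeq2 (adjusted p = 0.137), a filter of 1 CPM (adjusted p = 0.0554), no filter (adjusted p = 0.0766) and no scaling factor (adjusted p = 0.185). That of KRT8 did not hold with T98G PEPD-OE replicate 1 left out (-0.50, adjusted p = 0.105) or with both T98G libraries numbered 2 left out (-0.66, adjusted p = 0.0591), and that of SOX2 without U251 NC replicate 1 (-0.38, adjusted p = 0.0752). The summed level of the 4 fibroblast markers was 541 to 666 CPM in T98G PEPD-OE and 243 to 309 CPM in T98G NC, and 309 to 399 CPM in U251 PEPD-OE and 505 to 541 CPM in U251 NC, while DCN was at 0 in all groups but U251 NC. Most of this sum was COL1A2, with means of 534 CPM in T98G PEPD-OE and 224 CPM in T98G NC. Its U251 means were 346 CPM in PEPD-OE and 507 CPM in NC. PDGFRB had 1 count in each U251 group. COL1A2, and with it the sum, moved in the directions of CCDC152 and GPX4 below. What part COL1A2 or the sum had in those results was not tested.

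The library kit kept the strand of the RNA, while the strand setting of the counting is not given in the sources used here. Among 297 noncoding genes that lie at least 95% inside the exons of a coding gene on the other strand, in pairs with at least 100 counts, the noncoding name held more counts per kb in 241 (81.1%, Wilson 95% interval 76.3% to 85.2%). For genes that share bases with an opposite exon, RNA of the gene and RNA of its partner therefore cannot be told apart in these counts. These pairs come from the whole table. Which strand was counted is thus not known for genes without an opposite exon either, GPX4 among them, and was not tested. In bulk libraries, fewer cells of a kind and less RNA per cell cannot be told apart either.

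Counts under CCDC152 were 20.4-fold higher in T98G PEPD-OE and 3.32-fold lower in U251 PEPD-OE than in the NC cells of the same line. Counts under SELENOP were not called changed in T98G, and were nearly absent from U251. In T98G, CCDC152 had 1482, 1619 and 1455 CPM in the PEPD-OE libraries and 84.4, 62.4 and 76.5 CPM in the NC libraries. The U251 values were 85.9, 83.6 and 65.1 CPM in the PEPD-OE libraries and 254, 255 and 269 CPM in the NC libraries. In neither line did the groups overlap. The T98G means were 1519 ± 88.0 CPM in PEPD-OE and 74.4 ± 11.2 CPM in NC (SD, n = 3 each), and the log2 fold change was 4.37. The U251 means were 78.2 ± 11.4 CPM in PEPD-OE and 259 ± 8.36 CPM in NC, with a log2 fold change of -1.74. The T98G change minus the U251 change was 6.11 on the log2 scale. The highest levels stood in T98G PEPD-OE, U251 NC came next, and U251 PEPD-OE and T98G NC were lowest and overlapped each other. These values chose the gene and are not tested.

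SELENOP, transcribed from the other strand, had 65.1, 54.5 and 55.6 CPM in the T98G PEPD-OE libraries and 69.6, 33.8 and 61.5 CPM in the T98G NC libraries. These groups overlapped. The log2 fold change was 0.13 (SE 0.23, edgeR adjusted p = 0.713), and the ratio of the summed counts, 118 against 108, was 1.10 with an exact 95% counting interval of 0.843 to 1.45. The sign turned without T98G NC replicate 2 (-0.16, adjusted p = 0.693) and without both T98G libraries numbered 2 (-0.11, adjusted p = 0.831).

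In U251, SELENOP had no count in any of the 3 PEPD-OE libraries and 2, 1 and 4 counts in the NC libraries. The groups did not overlap, although all values lie near the limit of detection. SELENOP was called lower (edgeR adjusted p = 0.0347), and PEPD-OE was at least 2.38-fold lower when 3 counts over the group stand in for its 0. The exact 95% counting interval of 0 against 7 counts starts at 1.47-fold lower. SELENOP passed the filter on low counts only through its T98G libraries, and with U251 fitted alone it was not tested. The U251 call rests on 7 counts. It was lost without U251 NC replicate 3 (adjusted p = 0.19), without U251 NC replicate 1 (adjusted p = 0.0568) and without any one of the U251 PEPD-OE libraries (adjusted p = 0.0826, 0.114 and 0.0965 for replicates 1, 2 and 3). DESeq2 (adjusted p = 0.0543), a filter of 1 CPM (adjusted p = 0.0625) and no filter (adjusted p = 0.0877) lost it too. The change in T98G less that in U251 was called at 4.33 on the fitted log2 scale (SE 1.39, adjusted p = 0.0109), and not without U251 NC replicate 3 (3.71, adjusted p = 0.0734).

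**Figure D2:**
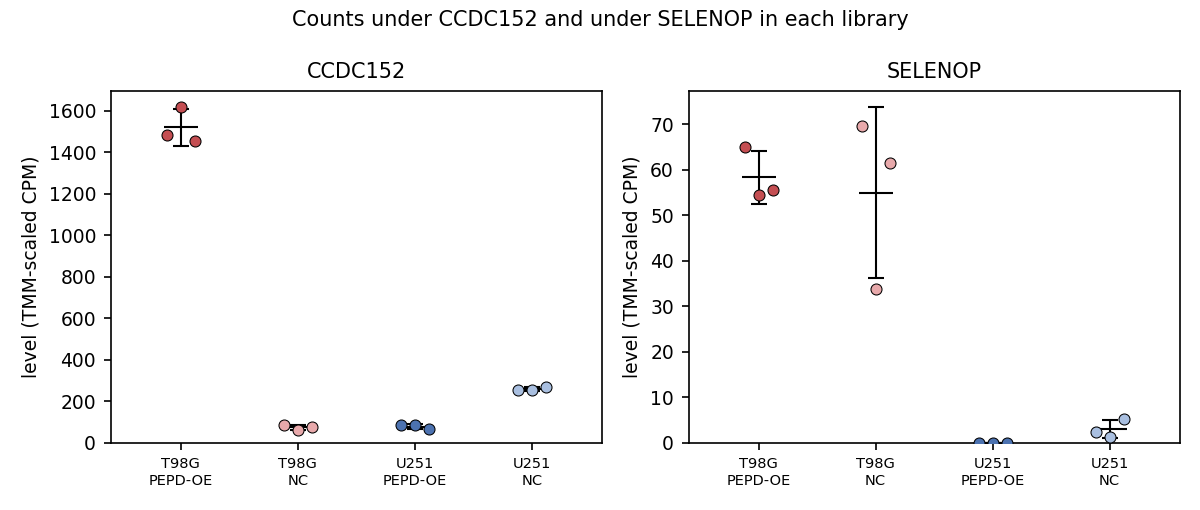
Levels under CCDC152 (left) and SELENOP (right) in TMM-scaled CPM, by line and label. Points are libraries, and bars are the mean and SD of 3 libraries. CCDC152 reaches 1455 to 1619 CPM in T98G PEPD-OE only, while SELENOP lies between 33.8 and 69.6 CPM in all 6 T98G libraries and at or below 5.12 CPM in all 6 U251 libraries.

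Counts under the names of the locus genes thus kept different orders over the 4 groups. Counts under CCDC152 were 22.8, 29.7 and 26.2 times those under SELENOP in the T98G PEPD-OE libraries and 1.21, 1.85 and 1.25 times in the T98G NC libraries. In the U251 NC libraries the ratio was 105.5, 198 and 52.5, on 1 to 4 SELENOP counts. The U251 PEPD-OE libraries gave no ratio, with 57, 70 and 61 counts under CCDC152 and none under SELENOP. Per kb of exon, T98G PEPD-OE replicate 1 had 432 CPM under CCDC152 and 11.4 CPM under SELENOP, and T98G NC replicate 1 had 24.6 CPM under CCDC152 and 12.2 CPM under SELENOP. SELENOP also shares 604 exon bases with AC008945.1, a gene with 10 counts in the whole table.

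Among the 9 members that were not chosen for their values, 7 passed the filter, and SELENOW and SELENOM did not. In T98G, 1 of the 7 was called higher with PEPD-OE and none lower, where 32.3% of all genes tested were called (17.7% higher and 14.7% lower). In U251, none was called higher and 2 were called lower, where 8.55% of all genes were called (4.13% higher and 4.42% lower). The median log2 fold change of the 7 was -0.43 in T98G and -0.04 in U251 (the same with SELENOP at its bound), against 0.00 over all genes tested in each line. The groups did not overlap for 2 of the 7 in T98G, GPX1 and GPX4, and for 3 of the 7 in U251, GPX4, SELENOH and SELENOP, where 43.5% of all genes tested had no overlap in T98G and 22.4% in U251. The difference between these changes, T98G minus U251, was called above 0 for 2 of the 7 and below 0 for none, where 27.7% of all genes were called (14.1% above and 13.6% below). The called members were GPX4 in each of these 3 comparisons and SELENOP in U251 and in the difference. SELENOP passed the filter only through its T98G libraries.

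GPX4 (ENSG00000167468, chr19:1103926-1106791, plus strand) reduces peroxides inside membrane lipids. It rose with PEPD-OE in T98G and fell in U251. In T98G its level was 119.8, 127.8 and 128.2 CPM in the PEPD-OE libraries and 90.7, 92.25 and 79.0 CPM in the NC libraries, with no overlap. The means were 125 ± 4.73 CPM in PEPD-OE and 87.3 ± 7.24 CPM in NC (SD, n = 3 each), and the log2 fold change was 0.53 (SE 0.16, edgeR adjusted p = 0.00748). The U251 levels were 107, 112 and 130.3 CPM in the PEPD-OE libraries and 164, 138 and 182 CPM in the NC libraries, again with no overlap. Here PEPD-OE averaged 116.5 ± 12.2 CPM and NC 161 ± 22.1 CPM, and the log2 fold change was -0.46 (SE 0.14, adjusted p = 0.0259). The difference between the lines was 0.99 on the log2 scale (SE 0.22, adjusted p = 0.000129), and it was called under every alternative run, from 0.68 to 1.09. Over the 4 groups, U251 NC stood highest and T98G NC lowest, and the PEPD-OE groups of the lines overlapped between them.

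Neither call within a line was as firm as the difference. The T98G call was lost without T98G NC replicate 3 (0.45, adjusted p = 0.0705) and on library totals with no scaling factor (0.31, adjusted p = 0.138). The U251 call was lost without U251 NC replicate 1 (adjusted p = 0.0895), U251 NC replicate 3 (adjusted p = 0.203), U251 PEPD-OE replicate 1 (adjusted p = 0.0786) or U251 PEPD-OE replicate 2 (adjusted p = 0.11). It was also lost with a filter of 1 CPM (adjusted p = 0.0521), with no filter (adjusted p = 0.0705) and with no scaling factor (adjusted p = 0.086). No exon of GPX4 lies opposite another gene, and among such genes alone the log2 fold changes were 0.56 in T98G (adjusted p = 0.00262) and -0.47 in U251 (adjusted p = 0.0169). Per kb of exon GPX4 stood at the 99.0th, 98.4th, 99.0th and 99.4th percentile of 13128 genes without an opposite exon, in T98G PEPD-OE, T98G NC, U251 PEPD-OE and U251 NC.

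GPX1 (ENSG00000233276, chr3:49357171-49358600, minus strand), the cytosolic enzyme for hydrogen peroxide, had 22.2, 23.4 and 28.5 CPM in T98G PEPD-OE and 19.0, 18.2 and 18.8 CPM in T98G NC. The groups did not overlap, but the log2 fold change of 0.41 (SE 0.33) was not called (edgeR adjusted p = 0.364). For U251 the levels were 24.1, 31.0 and 36.3 CPM in PEPD-OE and 21.7, 33.5 and 34.6 CPM in NC. These groups overlapped, and GPX1 was not called (0.06, SE 0.26, adjusted p = 0.943). The difference between the lines, 0.35, was not called (SE 0.42, adjusted p = 0.589).

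**Figure D3:**
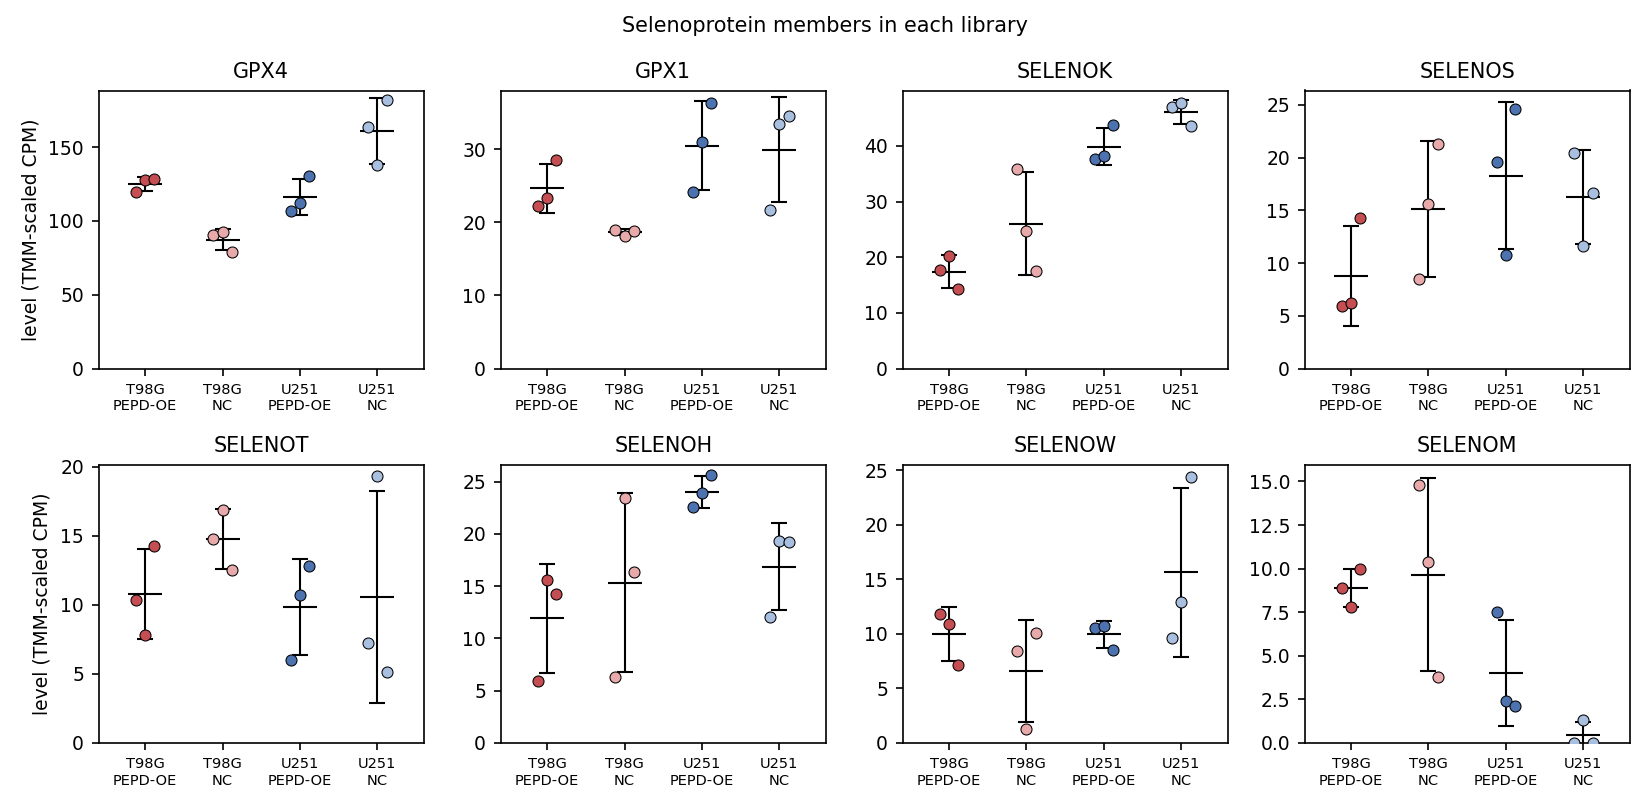
Levels of the 8 selenoprotein genes outside the locus, in TMM-scaled CPM, by line and label; each panel has its own y axis from 0. Points are libraries, and bars are the mean and SD of 3 libraries. GPX4 is separated by label in both lines and in opposite directions, while the groups overlap in most other panels.

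None of the 3 ER members that were tested, SELENOK, SELENOS and SELENOT, was called in either line. SELENOK (ENSG00000113811, chr3:53884410-53891988, minus strand) is an ER membrane protein that works with the acyltransferase ZDHHC6 in palmitoylation. It had 17.75, 20.3 and 14.25 CPM in T98G PEPD-OE and 35.9, 24.7 and 17.6 CPM in T98G NC, and these groups overlapped (log2 fold change -0.50, SE 0.33, edgeR adjusted p = 0.251). U251 cells had 37.7, 38.2 and 43.8 CPM in PEPD-OE and 46.95, 47.7 and 43.55 CPM in NC, again with an overlap (-0.20, SE 0.23, adjusted p = 0.701). SELENOS (ENSG00000131871, chr15:101270817-101277500, minus strand), which links the ATPase VCP to the ER membrane for degradation of misfolded proteins, had 4, 4 and 10 counts in T98G PEPD-OE and 4, 12 and 17 in T98G NC. Its log2 fold change was -0.84 in T98G (SE 0.45, adjusted p = 0.146) and 0.17 in U251 (SE 0.36, adjusted p = 0.854), where it had 13, 9 and 23 counts in PEPD-OE and 17, 9 and 13 in NC. The groups of SELENOS overlapped in both lines.

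SELENOT (ENSG00000198843, chr3:150602875-150630445, plus strand), a thioredoxin-like ER protein, had 7, 5 and 10 counts in T98G PEPD-OE and 7, 13 and 10 in T98G NC. Its U251 counts were 4, 9 and 12 counts in PEPD-OE and 6, 15 and 4 in NC. The groups overlapped in both lines, and neither change was called, at -0.43 (SE 0.45, edgeR adjusted p = 0.504) and -0.04 (SE 0.45, adjusted p = 0.988). SELENOT shares 61 exon bases with SERP1 on the other strand, which held 1132 counts in all against 102 under SELENOT, and SERP1 was not called in either line. With both counted together the log2 fold change was 0.25 in T98G (adjusted p = 0.151) and 0.08 in U251 (adjusted p = 0.867).

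SELENOH (ENSG00000211450, chr11:57741250-57743554, plus strand), a redox protein of the nucleolus, had 4, 10 and 10 counts in T98G PEPD-OE and 3, 18 and 13 in T98G NC, with overlap. In U251 it had 22.6, 23.9 and 25.6 CPM in PEPD-OE and 12.04, 19.3 and 19.2 CPM in NC, with no overlap. Neither change was called (log2 fold changes -0.47, SE 0.41, edgeR adjusted p = 0.411, and 0.52, SE 0.33, adjusted p = 0.388). The difference between the lines was -0.99 (SE 0.53, adjusted p = 0.157), as large in size as that of GPX4 but on 157 counts in all against 1102. SELENOH shares 41 exon bases with BTBD18, which held 16 counts.

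SELENOW and SELENOM had too few counts to be tested. SELENOW (ENSG00000178980, chr19:47778572-47784686, plus strand), a small cytosolic thioredoxin-like protein, had 8, 7 and 5 counts in T98G PEPD-OE and 4, 1 and 8 in T98G NC, with an overlap. In U251 it had 7, 9 and 8 counts in PEPD-OE and 8, 10 and 19 in NC, which also overlapped. SELENOM (ENSG00000198832, chr22:31104772-31120069, minus strand), an ER member, had 6, 5 and 7 counts in T98G PEPD-OE and 7, 8 and 3 in T98G NC. Its U251 counts were 5, 2 and 2 in PEPD-OE and 0, 1 and 0 in NC, which did not overlap. The ratio of these U251 counts was 8.82 with an exact 95% counting interval of 1.22 to 386.

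The NC groups of the lines were also compared, without PEPD over-expression. Between T98G NC and U251 NC, 3 of the 7 tested members were called, SELENOP higher and GPX4 and SELENOK lower in T98G NC, where 48.7% of all genes tested were called (24.4% higher and 24.3% lower). The groups did not overlap for 4 of the 7, these 3 and GPX1, against 55.1% of all genes tested. Both shares lie near those of all genes. SELENOP held 33, 26 and 49 counts in T98G NC and 2, 1 and 4 in U251 NC, which did not overlap. It passed the filter only through the T98G libraries. The log2 difference was 4.11 (SE 0.40, edgeR adjusted p = 1.58e-17), and the ratio of summed counts was 18.05 with a counting interval of 8.47 to 46.0. GPX4 was lower in T98G NC by a log2 difference of -0.89 (SE 0.16, adjusted p = 3.48e-07), from means of 87.3 ± 7.24 CPM in T98G NC and 161 ± 22.1 CPM in U251 NC. SELENOK averaged 26.0 ± 9.23 CPM in T98G NC and 46.05 ± 2.20 CPM in U251 NC (-0.90, SE 0.26, adjusted p = 0.00242), and was not called once T98G NC replicate 3 was left out (-0.66, adjusted p = 0.0618).

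Counts under CCDC152 went the other way from those under SELENOP between the NC groups, at 74.4 CPM in T98G NC and 259 CPM in U251 NC, a log2 difference of -1.82, given as a description. GPX1 was not called (-0.67, SE 0.31, edgeR adjusted p = 0.0584). It was called without U251 NC replicate 1 (-0.87, adjusted p = 0.0229) and among genes without opposite exons (adjusted p = 0.0348). SELENOS, SELENOT and SELENOH were not called, at -0.02, 0.48 and -0.02 (adjusted p = 0.966, 0.372 and 0.969). With SERP1 counted in, SELENOT was called higher in T98G NC (1.17, adjusted p = 3.35e-11), as SERP1 was by itself (1.24, adjusted p = 8.83e-12). SELENOW had 13 counts in T98G NC and 37 in U251 NC, and SELENOM had 18 in T98G NC and 1 in U251 NC. Of the 15 tested genes in the list of all 25 human selenoprotein genes, 5 were called higher in T98G NC and 2 lower. Among all genes tested 48.7% were called, a share near that of the list. The calls outside the members were those of DIO2, GPX3, SELENOI and TXNRD1, all higher. That of SELENOI (1.16, adjusted p = 0.0188) was lost without T98G NC replicate 2 (adjusted p = 0.0844), T98G NC replicate 3 (adjusted p = 0.105), U251 NC replicate 1 (adjusted p = 0.0542), U251 NC replicate 3 (adjusted p = 0.0947) or both T98G libraries numbered 2 (adjusted p = 0.0868), and with DESeq2 (adjusted p = 0.0674).

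The other genes of the family were read from the same list. With PEPD-OE in T98G, 4 of the 15 were called higher and 1 lower, where 32.3% of all genes tested were called, a share near that of the list. In U251 2 were called higher and 2 lower, SELENOP among them on 7 counts, where 8.55% of all genes were called. Their median log2 fold change was 0.13 in T98G and 0.21 in U251. TXNRD1, the cytosolic thioredoxin reductase, rose in both lines. It had 1059, 968 and 1031 CPM in T98G PEPD-OE and 502, 529 and 564.5 CPM in T98G NC, and 253, 278 and 269 CPM in U251 PEPD-OE against 166, 147 and 157.5 CPM in U251 NC. The groups were apart in both lines, and the log2 fold changes were 0.94 (SE 0.10, edgeR adjusted p = 6.01e-15) and 0.77 (SE 0.12, adjusted p = 1.46e-07). The difference between the lines was not called (0.17, SE 0.16, adjusted p = 0.462).

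DIO2, the deiodinase that activates thyroid hormone, fell in T98G and rose in U251. It had 2.96, 10.9 and 7.12 CPM in T98G PEPD-OE and 35.9, 24.7 and 27.6 CPM in T98G NC, with no overlap (log2 fold change -2.02, SE 0.42, edgeR adjusted p = 3.34e-05). In U251 DIO2 had 25.6, 26.3 and 16.02 CPM in PEPD-OE and 6.02, 10.3 and 1.28 CPM in NC, again with no overlap (1.89, SE 0.42, adjusted p = 0.000708). The difference between the lines was -3.91 (SE 0.60, adjusted p = 2e-08), opposite in sign to that of SELENOP and GPX4. DESeq2 gave no adjusted p for the U251 change (1.91, unadjusted p = 0.000408). DIO2 has an opposite partner, DIO2-AS1.

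GPX3, the plasma glutathione peroxidase, had 41.4, 45.2 and 57.0 CPM in T98G PEPD-OE and 29.5, 20.8 and 25.1 CPM in T98G NC, and it rose (log2 fold change 0.96, SE 0.28, edgeR adjusted p = 0.00445). It was no longer called without T98G PEPD-OE replicate 3 (0.81, adjusted p = 0.0517) and without both T98G libraries numbered 2 (0.87, adjusted p = 0.0561). In U251 the log2 fold change was 1.16 (SE 0.56, adjusted p = 0.209), on 21 counts in PEPD-OE and 9 in NC. SELENOI, an enzyme of phosphatidylethanolamine synthesis that shares bases with ADGRF3, had 32.5, 28.05 and 32.8 CPM in T98G PEPD-OE and 8.44, 19.5 and 20.1 CPM in T98G NC. Its log2 fold change of 0.87 (SE 0.33) was called (adjusted p = 0.0338). The call was lost without T98G NC replicate 1 (0.65, adjusted p = 0.162), T98G NC replicate 2 (0.98, adjusted p = 0.0503), T98G PEPD-OE replicate 1 (0.84, adjusted p = 0.0864), T98G PEPD-OE replicate 3 (0.83, adjusted p = 0.0898) or both T98G libraries numbered 2 (1.06, adjusted p = 0.0554), with DESeq2 (adjusted p = 0.114), with either other filter (adjusted p = 0.0655 and 0.0911) and with no scaling factor (adjusted p = 0.121). Of the genes not tested, DIO3, GPX6 and SELENOV had no count in any library.

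**Figure D4:**
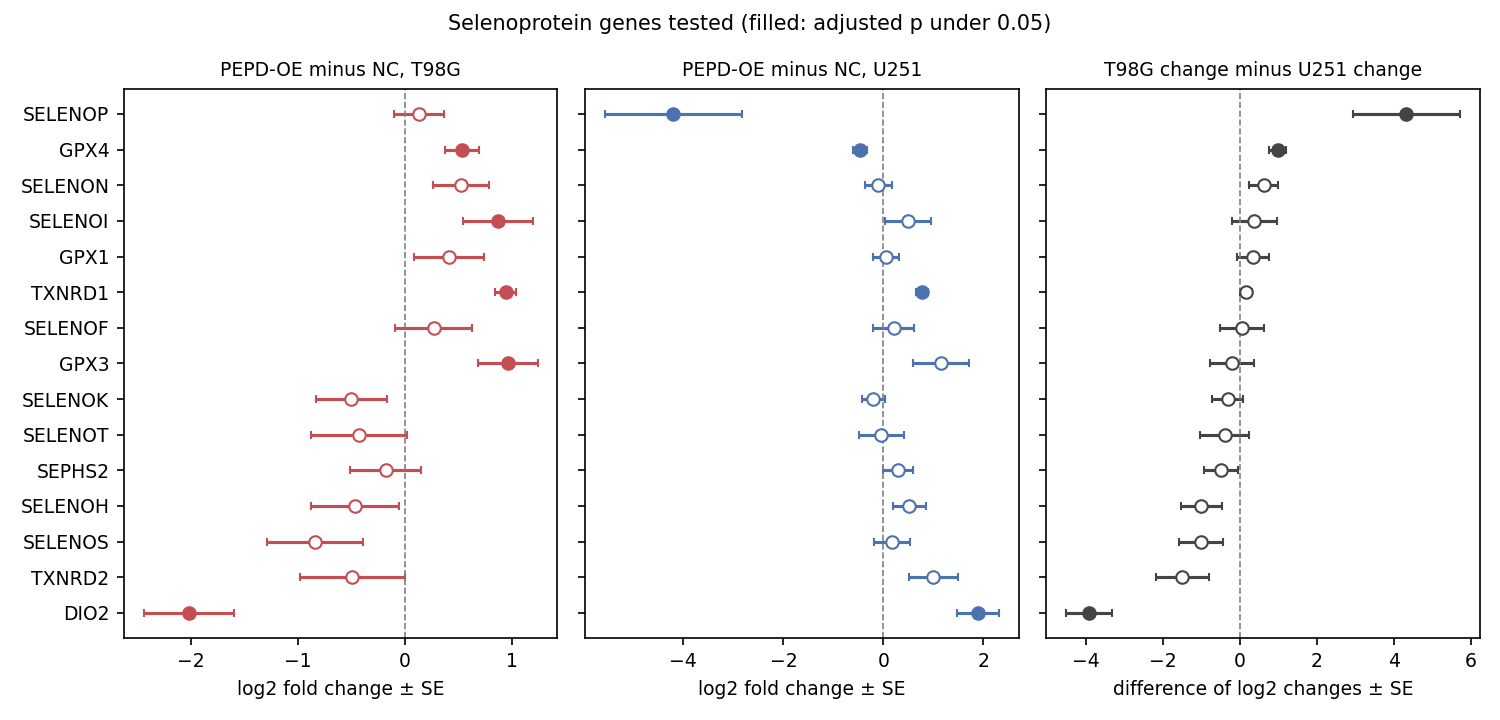
Log2 fold changes of the 15 tested selenoprotein genes with PEPD-OE over NC in T98G (left) and U251 (middle), and the difference of these changes, T98G minus U251 (right), with SE. Filled points have an adjusted p under 0.05; the fitted U251 value of SELENOP compares 0 with 7 counts. SELENOP and GPX4 stand at the top of the right panel, at 4.33 and 0.99, and DIO2 at the bottom, at -3.91.

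**Figure D5:**
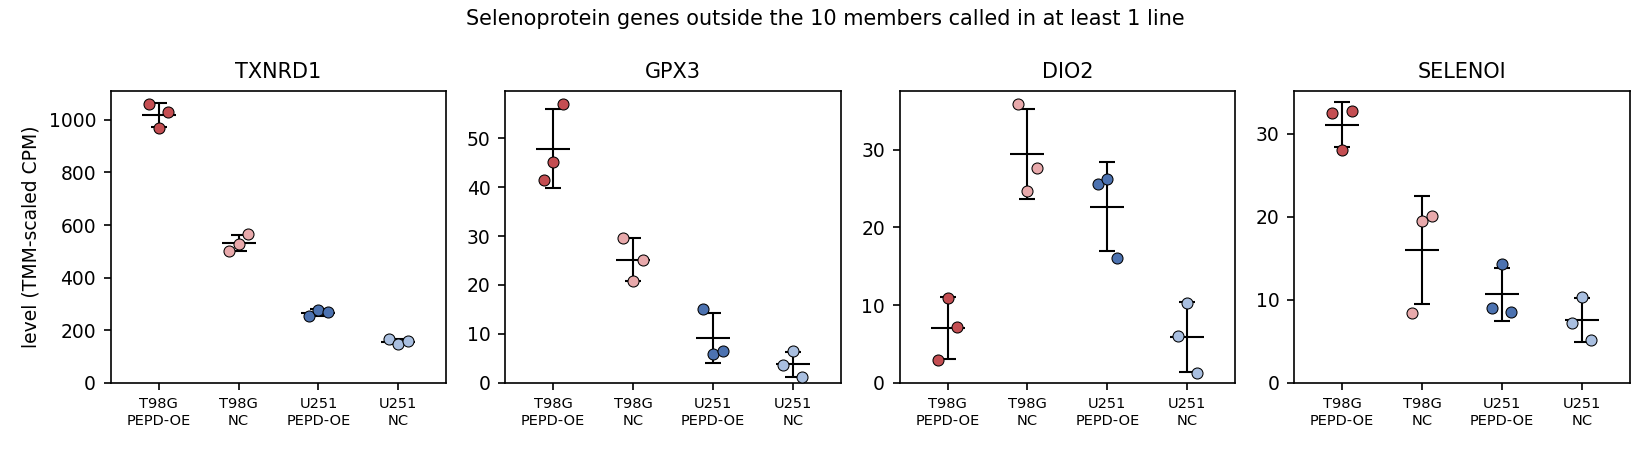
Levels of the 4 called selenoprotein genes outside the 10 members, in TMM-scaled CPM, by line and label. Points are libraries, and bars are the mean and SD of 3 libraries. TXNRD1 is higher with PEPD-OE in both lines, DIO2 is lower with PEPD-OE in T98G and higher in U251, and GPX3 and SELENOI are higher with PEPD-OE in T98G.

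Of 17 listed genes that make selenocysteine, read the codon or supply selenium, 10 were tested. In T98G 2 were called lower and none higher, where 32.3% of all genes tested were called, and in U251 2 were called higher and none lower, where 8.55% were. Their median log2 fold changes were -0.05 in T98G and 0.18 in U251. Between the NC groups LRP8, NCL, RPL30 and SARS1 were called higher in T98G and SECISBP2L lower, where 48.7% of all genes were called. The SECISBP2L call (-0.93, adjusted p = 0.0238) was lost without T98G NC replicate 1 (adjusted p = 0.11), T98G NC replicate 2 (adjusted p = 0.0821), U251 NC replicate 1 (adjusted p = 0.112), U251 NC replicate 3 (adjusted p = 0.0766) or both T98G libraries numbered 2 (adjusted p = 0.0837), and with DESeq2 (adjusted p = 0.0696). NCL, nucleolin, which binds selenoprotein mRNAs among many other RNAs, fell in T98G to 555, 608 and 642.5 CPM in PEPD-OE, against 1437, 1436 and 1445 CPM in NC (log2 fold change -1.26, SE 0.09, edgeR adjusted p = 1.02e-25). In U251 it rose to 755, 746 and 698 CPM in PEPD-OE, against 561, 542 and 524 CPM in NC (0.43, SE 0.09, adjusted p = 0.000439). SARS1, the synthetase that charges the selenocysteine tRNA with serine, fell in T98G to a mean of 78.0 ± 12.1 CPM in PEPD-OE, against 149 ± 5.16 CPM in NC (-0.93, SE 0.17, adjusted p = 1.44e-06). In U251 it was not called (0.17, SE 0.16, adjusted p = 0.613).

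LRP8, the receptor that takes up selenoprotein P, had 37.7, 63.3 and 53.4 CPM in U251 PEPD-OE and 24.1, 37.4 and 29.5 CPM in U251 NC. The groups lay apart by a narrow gap, and the rise was called (log2 fold change 0.79, SE 0.23, edgeR adjusted p = 0.0172). It was lost without U251 NC replicate 1 (0.64, adjusted p = 0.152), U251 NC replicate 3 (0.77, adjusted p = 0.071), U251 PEPD-OE replicate 2 (0.62, adjusted p = 0.182) or U251 PEPD-OE replicate 3 (0.77, adjusted p = 0.05), and with DESeq2 (0.76, adjusted p = 0.0758). In T98G, LRP8 was not called (0.26, SE 0.20, adjusted p = 0.347), and the difference between the lines was not called either (-0.53, SE 0.31, adjusted p = 0.211). LRP8 shares 1062 exon bases with MAGOH-DT, AL355483.2 and AL355483.4 on the other strand. SECISBP2, the protein that binds the stem-loop, had log2 fold changes of 0.07 in T98G and 0.25 in U251 (adjusted p = 0.929 and 0.788).

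Of 10 listed partners of SELENOS and SELENOK in the ER, 9 were tested, and 1 was called, SEL1L in T98G, where 32.3% of all genes tested were called, against none in U251, where 8.55% were. Between the NC groups DERL1, HERPUD1 and SEL1L were called higher in T98G and UBE2J1 and VCP lower, where 48.7% of all genes were called. The HERPUD1 call (0.63, adjusted p = 0.0381) was lost without T98G NC replicate 2 (adjusted p = 0.125), T98G NC replicate 3 (adjusted p = 0.129), U251 NC replicate 1 (adjusted p = 0.115), U251 NC replicate 2 (adjusted p = 0.105) or both T98G libraries numbered 2 (adjusted p = 0.128), and with DESeq2 (adjusted p = 0.132). The DERL1 call (1.03, adjusted p = 0.0236) was lost without T98G NC replicate 1 (adjusted p = 0.0547), T98G NC replicate 2 (adjusted p = 0.171), U251 NC replicate 1 (adjusted p = 0.087), U251 NC replicate 2 (adjusted p = 0.0693) or both T98G libraries numbered 2 (adjusted p = 0.175), and with DESeq2 (adjusted p = 0.0804). SEL1L, a scaffold of the ubiquitin ligase that degrades ER proteins, had 16.3, 24.9 and 14.25 CPM in T98G PEPD-OE and 21.1, 40.3 and 32.6 CPM in T98G NC, which overlapped (log2 fold change -0.82, SE 0.31, edgeR adjusted p = 0.0332). That call was lost without T98G NC replicate 2 (-0.62, adjusted p = 0.225), T98G NC replicate 3 (-0.82, adjusted p = 0.0777), T98G PEPD-OE replicate 1 (-0.74, adjusted p = 0.112), T98G PEPD-OE replicate 3 (-0.66, adjusted p = 0.157) or both T98G libraries numbered 2 (-0.88, adjusted p = 0.128). DESeq2 (adjusted p = 0.136), a filter of 1 CPM (adjusted p = 0.0618) and no filter (adjusted p = 0.0859) also lost it. The SEL1L call between the NC groups (0.92, adjusted p = 0.00866) was lost without T98G NC replicate 2 (0.71, adjusted p = 0.107), without both T98G libraries numbered 2 (0.71, adjusted p = 0.111) and with DESeq2 (adjusted p = 0.0532). VCP, the ATPase that pulls proteins out of the ER, was not called in either line (-0.19, adjusted p = 0.406, and -0.20, adjusted p = 0.396), nor was ZDHHC6 (-0.39, adjusted p = 0.433, and 0.26, adjusted p = 0.74). Of the 3 glutathione peroxidases that carry cysteine in place of selenocysteine, GPX8 was the one tested, and it was not called in either line (-0.51, adjusted p = 0.385, and 0.41, adjusted p = 0.578).

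The genes most like CCDC152 over the 12 libraries, by Pearson's r of log2 CPM, were MTREX (0.985), CHMP1B-AS1 (0.982), MTERF2 (0.981), IQCK (0.98) and MMACHC (0.974). All 5 share exon bases with a gene on the other strand, from 406 to 2423 bases, as CCDC152 does and as 52.2% of the tested genes found in the annotation do. Their own changes were smaller than that of CCDC152, which was chosen for its large changes. MTREX averaged 877 CPM in T98G PEPD-OE and 225 CPM in T98G NC, and 274.5 CPM in U251 PEPD-OE and 461 CPM in U251 NC. The genes most like SELENOP were LAMB1 (0.988), MIF-AS1 (0.985), FLNC (0.985), TPM2 (0.983) and HPS3 (0.983), of which all but TPM2 share such bases, from 68 to 1418. Each was higher in both T98G groups than in both U251 groups. FLNC, like SELENOP, had no count in U251 PEPD-OE, with means of 57.0 CPM in T98G PEPD-OE, 49.2 CPM in T98G NC and 1.71 CPM in U251 NC. The libraries fall into 4 groups and share their depths, so these r values mainly follow 4 group levels and are a description.

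Around the locus, 10 other genes within 1 Mb were tested out of 49 annotated, a window chosen after the values were seen. None moved as far as CCDC152, which was itself chosen for its large changes, so this comparison cannot show a trait of the locus. The largest T98G changes were those of AC114947.2 (log2 fold change 1.63, SE 0.13, edgeR adjusted p = 1.3e-24) and HMGCS1 (1.60, SE 0.27, adjusted p = 2.01e-07), a pair that shares 703 bases on opposite strands. Both also rose in U251 (0.93, adjusted p = 3.55e-10, and 0.86, adjusted p = 0.0314), where counts under CCDC152 were lower. The U251 call of HMGCS1 was lost without U251 NC replicate 2 or 3 (0.53, adjusted p = 0.315, and 0.86, adjusted p = 0.102) or U251 PEPD-OE replicate 1 or 2 (0.82, adjusted p = 0.0784, and 0.67, adjusted p = 0.244). DESeq2 (adjusted p = 0.114) and no filter (adjusted p = 0.0685) also lost it. HMGCS1 makes a precursor of cholesterol. ANXA2R-AS1, at 14.8 ± 2.01 CPM in T98G PEPD-OE and 5.23 ± 1.03 CPM in T98G NC, rose in T98G (1.44, SE 0.50, adjusted p = 0.0181) and had a log2 fold change of -0.66 in U251 (adjusted p = 0.272), with a difference between the lines of 2.10 (adjusted p = 0.00465). ANXA2R-OT1 likewise rose in T98G (1.44, adjusted p = 0.00238) and was not called in U251 (-0.30, adjusted p = 0.708). OXCT1 went the other way, falling in T98G (-1.30, SE 0.43, adjusted p = 0.0122) with 0.86 in U251 (adjusted p = 0.0808), a difference between the lines of -2.16 (adjusted p = 0.000775). The T98G call of ANXA2R-AS1 was lost without T98G NC replicate 2 (adjusted p = 0.0613), T98G PEPD-OE replicate 3 (adjusted p = 0.0689) or both T98G libraries numbered 2 (adjusted p = 0.0777), and with DESeq2 (adjusted p = 0.0579). That of ANXA2R-OT1 did not hold with T98G PEPD-OE replicate 1 left out (1.07, adjusted p = 0.0795), and that of OXCT1 without T98G NC replicate 1 (-1.06, adjusted p = 0.0843), T98G PEPD-OE replicate 2 (-0.95, adjusted p = 0.114) or both T98G libraries numbered 2 (-1.13, adjusted p = 0.0829).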

How the data were processed

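The deposited table holds counts of reads per gene, raw whole numbers with 1 column for each of the 12 libraries. Nothing in it points to scaling by the authors. Per the submitters' processing notes, FastQC, fastp, HISAT2, featureCounts, Subread and the build GRCh38 were used; for these tools the sources used here give neither versions nor an annotation release nor whether counting used strand. Exons and opposite-strand overlaps were read from GENCODE 29, which held 92.1% of the gene identifiers, and promoter windows from RefSeq (9 of 10 members matched).

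Genes were kept by filterByExpr (minimum count 10, 8773 genes), scaled by TMM and fitted in edgeR 4.0.16 (R 4.3.3) with a robust quasi-likelihood model of 4 group means, leaving 8 residual degrees of freedom. P-values are two-sided, adjusted by Benjamini and Hochberg over all genes tested. SE is the size of the log2 fold change over the root of F, and can lie below counting error. Counting intervals cover counting error only. A count of 3 equalled 3.20 to 6.33 CPM. An exact test of 3 against 3 cannot go below 0.1, so no value was tested alone. The fit was tested on simulated data with changes in T98G PEPD-OE. It recovered 57.1% of 91 genes with a log2 change of 1 and 96.7% of 92 genes with a log2 change of 2. Of 149 calls, 8 were false. In the simulation all groups otherwise shared the same mean for each gene, and far fewer genes changed than were called in the data. These figures may thus not carry over to the data. A gene that was not called may therefore still have changed.

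The members and lists were chosen with earlier results of these data known. All members, opposite partners, called genes of the selenoprotein, machinery and ER lists and the 5 genes most like each locus gene are named; GPX8, VCP, ZDHHC6, SECISBP2, the list members at 0, the markers and the neighbours were added after their values were seen. Alternatives were RLE and upper-quartile scaling, no filter or a filter of 1 CPM in 3 libraries, DESeq2 1.42.0, each line alone, a replicate block, robust estimation off, genes without opposite exons, members summed with partners and each library left out; after seeing the data, library totals without a factor and the T98G libraries numbered 2 left out were added.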

Additional observations from a re-analysis of the deposited data

Results flagged for a closer look

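The change with PEPD-OE differed between the lines for 6 genes of the members and their lists, by the test of the T98G change minus the U251 change in edgeR's quasi-likelihood model. Of the 15 tested selenoprotein genes, 2 were called above 0 and 1 below. Of the 10 tested genes of the selenocysteine and selenium list 2 were called, and of the 9 tested ER partners 1, all below 0. Among all genes tested 27.7% were called. SELENOP differed by 4.33 on the log2 scale (adjusted p = 0.0109), on 0 counts in U251 PEPD-OE and 7 in U251 NC, and GPX4 by 0.99 (adjusted p = 0.000129), both higher in T98G than in U251. DIO2 differed by -3.91 (adjusted p = 2e-08), NCL by -1.69 (adjusted p = 1.21e-23), SARS1 by -1.10 (adjusted p = 5.06e-05) and SEL1L by -1.24 (adjusted p = 0.0264), all lower in T98G than in U251. CCDC152 differed by 6.11, with every T98G PEPD-OE library above every T98G NC library and every U251 PEPD-OE library below every U251 NC library. That difference was not tested, because the gene was chosen for it. The difference for SEL1L was lost without T98G NC replicate 2 (-1.04, adjusted p = 0.113), T98G PEPD-OE replicate 1 (-1.16, adjusted p = 0.0639), T98G PEPD-OE replicate 3 (-1.08, adjusted p = 0.0826), U251 NC replicate 2 (-1.17, adjusted p = 0.0568) U251 PEPD-OE replicate 1 (-1.15, adjusted p = 0.0608) or both T98G libraries numbered 2 (-1.30, adjusted p = 0.0664), with DESeq2 (adjusted p = 0.118), with a filter of 1 CPM (adjusted p = 0.0523) and with no filter (adjusted p = 0.0731). Among the neighbours within 1 Mb, ANXA2R-AS1 differed by 2.10 (adjusted p = 0.00465), ANXA2R-OT1 by 1.74 (adjusted p = 0.0075; 0.076 without T98G PEPD-OE replicate 1), AC114947.2 by 0.70 (adjusted p = 0.000892; 0.0721 on library totals with no scaling factor) and OXCT1 by -2.16 (adjusted p = 0.000775). Among the markers of cell types, COL1A2 differed by 1.80 (adjusted p = 1.59e-19), GFAP by 1.04 (adjusted p = 1.43e-05) and KRT8 by -1.08 (adjusted p = 0.012). The KRT8 difference did not hold with T98G PEPD-OE replicate 1 left out (adjusted p = 0.0845) or with U251 PEPD-OE replicate 1 or 3 left out (adjusted p = 0.0577 and 0.078). DESeq2 lost it too (adjusted p = 0.0789).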

How the results depend on the processing

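The number of tested members called moved with the processing, and where a cause is not plain from the construction it was not tested. In T98G the count of 1 became 0 on library totals with no scaling factor and ran from 0 to 1 with 1 library left out. In U251 the count of 2 became 1 with DESeq2, with each line fitted alone, on library totals with no factor, with members summed with their partners and among genes without opposite exons; it became 0 with no filter or a filter of 1 CPM, and ran from 0 to 2 with 1 library left out. With each line fitted alone, SELENOP was not tested in U251. For the difference the count of 2 became 1 with partners summed in and among genes without opposite exons, which leave SELENOP out, and ran from 1 to 2 with 1 library left out. Between the NC groups the count of 3 became 5 with no filter or a filter of 1 CPM, which bring in SELENOW and SELENOM. Of the selenoprotein list, the T98G count of 5 became 3 on library totals with no factor, among genes without opposite exons and without both T98G libraries numbered 2, and ran from 3 to 5 with 1 library left out. Its U251 count of 4 became 2 with DESeq2, where DIO2 had no adjusted p, with no filter, with a filter of 1 CPM and among genes without opposite exons, and ran from 2 to 4 with 1 library left out.

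Signs turned only for values that were not called. On library totals with no factor, SELENOP in T98G became -0.09, SELENOT in U251 0.04, SELENOS and SELENOH between the NC groups 0.10 each, and TXNRD1 between the lines -0.13. With partners summed in, SELENOT became 0.25 in T98G, 0.08 in U251 and 0.18 between the lines, and SELENOH 0.03 between the NC groups. With 1 library left out, SELENOP in T98G ran from -0.16 to 0.29, SELENOS in U251 from -0.15 to 0.45, SELENOT in U251 from -0.35 to 0.70 and GPX1 in U251 from -0.13 to 0.18. Between the NC groups SELENOS ran from -0.35 to 0.18 and SELENOH from -0.42 to 0.23. Without both T98G libraries numbered 2, SELENOP in T98G was -0.11 and SELENOS between the NC groups 0.01.

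With no scaling factor, the share of all called genes that were higher was 33.6% in T98G against 54.7% with TMM, with a median of -0.21 over all genes, 69.8% in U251 against 48.3%, and 29.2% for the difference against 51.0%, with a median of -0.32. With DESeq2 it was 38.1% in U251, where 415 genes were called against 750. For samples with the same number within a line, deviations from the group mean had r from -0.042 to 0.058 over genes. The highest was that of the T98G libraries numbered 2, which also hold the highest PTPRC counts. Counting error in libraries of this depth can hide a pairing, so these values cannot show whether the numbers pair samples. With the replicate number as a block, the counts of members stayed at 1, 2, 2 and 3, and those of the selenoprotein list at 5 and 4.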
